A study of Danio rerio with 4 samples.

Results

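Nuclear genes encode every subunit of respiratory complex II, most subunits of complexes III, IV and V, and cytochrome c, and their transcripts were examined here in injured zebrafish ventricles. Members were taken by name alone, from lower-case symbols of the succinate dehydrogenase (sdha to sdhd), uqcr, cyc1, cycs, cox4 to cox8 or atp5 series. Such symbols belong to 56 of 19875 genes in the deposited table. Genes written there in capitals, such as COX5B, COX7A2 and ATP5MD, fell outside the rule and are given under other observations. Each of the 56 reached the minimum mean of 10 over the 4 libraries. Complex II contributed 9 genes, complex III 9, cytochrome c 1, complex IV 18 and complex V 19. Not all are subunits, since complex II includes 4 assembly factors, and complex V includes 2 inhibitors and the coupling factor B gene atp5s. The first group was 2 libraries of ventricles from ccn2a-/- fish, homozygous mutants of the matricellular protein gene ccn2a, and the second was 2 libraries of wild-type ventricles. Both were collected 4 days after injury (4 dpci in the titles), with the atrium and the bulbus arteriosus removed. The labels give neither the lesion in ccn2a, nor the strain or age, nor whether a library came from 1 heart or several, so p-values measure the spread between libraries, which may be technical.

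These complexes form the later part of the mitochondrial respiratory chain. Complex II passes electrons from succinate to ubiquinone, complex III hands them on to the mobile carrier cytochrome c, and complex IV gives them to oxygen. Complex V, the ATP synthase, uses the proton gradient so built to make ATP. Heart muscle is among the tissues richest in these proteins, and in mammals several complex IV subunits exist as a muscle isoform and a ubiquitous isoform encoded by separate genes.

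Values are read counts per gene that the authors had scaled and rounded, called normalised counts below. Approximate depth lay between 17.2 and 21.5 M reads per library. Transcripts of the mitochondrial genome, which encodes the remaining subunits, took 14.7% and 13.6% of the values in mutant ventricles, against 13.4% and 7.66% in wild type. The ccn2a gene itself, named ctgfa in the table, had 3070 and 1473 normalised counts in mutant ventricles against 4737 and 4411 in wild type (limma, adjusted p = 0.381). Both mutant libraries thus lay below both wild-type libraries for the mutated gene, but the difference did not pass the test. Cardiomyocyte transcripts were abundant in every library, as a ventricle would give: 11 of 13 listed marker symbols were in the table, and their 12 genes summed to 1649584 and 1417295 in mutant ventricles against 1181509 and 977277 in wild type. In bulk tissue, fewer cells of a type and less RNA per cell cannot be told apart.

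Transcripts for the respiratory complexes were more abundant in the mutant ventricles at 52 of 56 genes, by a modest amount, and none of these differences passed the test. The median log2 fold change over the 56 genes was 0.44 (mutant minus wild type, on log2 of the value plus 1), and over all 16730 tested genes it was 6.28e-05. Without the assembly factors, inhibitors and coupling factor B, 49 genes remained, with a median of 0.41 and 46 higher in the mutant. Both mutant libraries lay above both wild-type libraries at 44 of the 56 genes (78.6%), where 26.6% of all tested genes did. At 0 of the 56 did both mutants lie below both wild types, where 25.7% of all tested genes did. Below, a gene is said to be above in both mutants when the lower mutant library exceeded the higher wild-type one. A limma-trend fit with Benjamini-Hochberg adjustment over all genes called 0 of 16730 genes (0%) and so 0 of the 56, whose smallest adjusted p was 0.381. At an unadjusted p under 0.05 there were 6 members, all higher in the mutant. That is 10.7% of the members, against 12.8% of all tested genes (5.89% higher and 6.93% lower in the mutant), so the share of small p-values among the members was no larger than the background in both directions together. Leaving out a library leaves 1 in its genotype, so only sizes are given here. The members' median log2 fold change was 0.53 without wild-type replicate 1 and 0.32 without wild-type replicate 2.

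**Figure D1:**
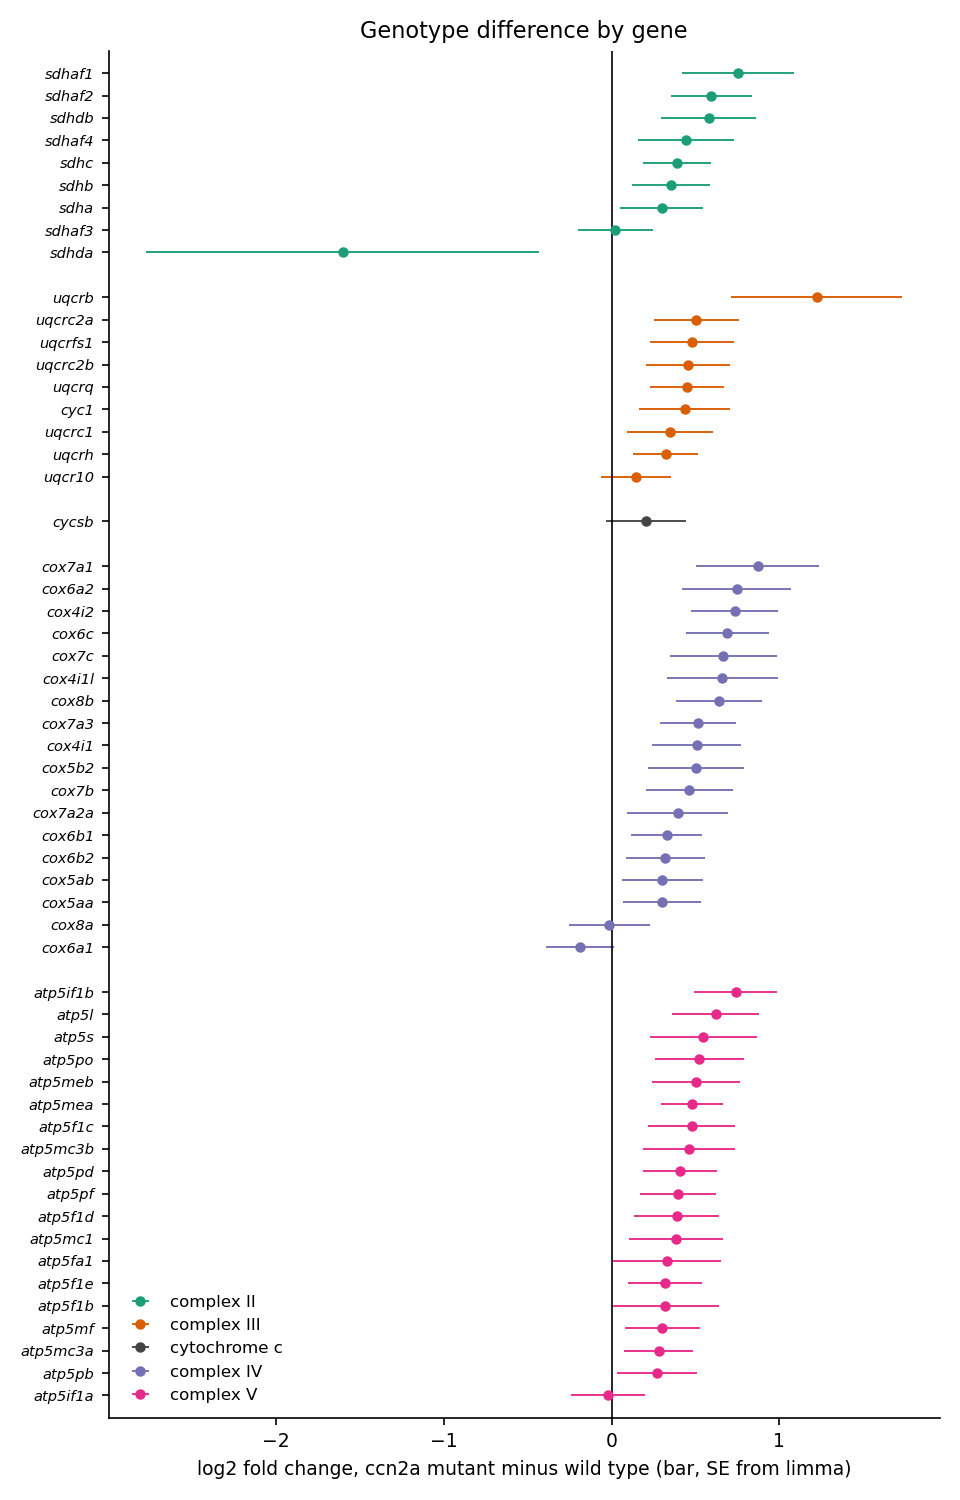
Log2 fold change of each of the 56 genes, ccn2a mutant minus wild type, by complex; points are limma estimates and bars their SE. The points lie right of 0 at 52 genes, and sdhda, cox6a1, cox8a and atp5if1a lie left of it.

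How the libraries were scaled bears on the size of this difference. When the libraries were rescaled to equal totals of genes outside the mitochondrial genome, the median of all tested genes shifted by -0.18. The members' median was then 0.26, and 50 of the 56 were higher, with sdhaf3 and uqcr10 turning lower. Its distance from the median of all genes stayed at 0.44, since a single factor per library moves nearly all genes alike. Under quantile normalisation, which can change that distance, the members' median was 0.21, or 0.20 above that of all genes. In that fit 51 members were higher, with cycsb turning lower.

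The excess was not shared evenly between the libraries of a genotype. Mutant replicate 1 was the highest library at 52 of 56 genes (33.9% of all tested genes), and wild-type replicate 2 was the lowest at 46 of 56 (33.4% of all tested genes). The median distance from a gene's mean over the 4 libraries was 0.43 in mutant replicate 1 and 0.0059 in mutant replicate 2, against -0.08 and -0.31 in wild-type replicates 1 and 2. Mutant replicate 2 and wild-type replicate 1 were thus close, with a median log2 difference of 0.09. The mutant was still the higher of these 2 libraries at 47 of the 56 genes, and at 8231 of all 16730 tested genes. Without mutant replicate 1 the members' median log2 fold change was 0.21, and without mutant replicate 2 it was 0.67. The medians of complexes II, III, IV and V were then 0.12, 0.20, 0.24 and 0.21 without mutant replicate 1, and 0.60, 0.67, 0.72 and 0.64 without mutant replicate 2. Summed over the 56 genes, normalised counts were 596214 and 443208 in mutant ventricles, against 414876 and 360823 in wild type. All values of a library totalled 21468746 and 19136642 in mutant ventricles, against 18059246 and 16310160 in wild type, the same order of libraries. As a share of these totals the 56 genes took 2.78% and 2.32% in mutant ventricles, against 2.30% and 2.21% in wild type. An exact permutation test of the log2 sums of the 56 genes gave a two-sided p of 0.333, the smallest that 2 against 2 libraries allow.

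**Figure D2:**
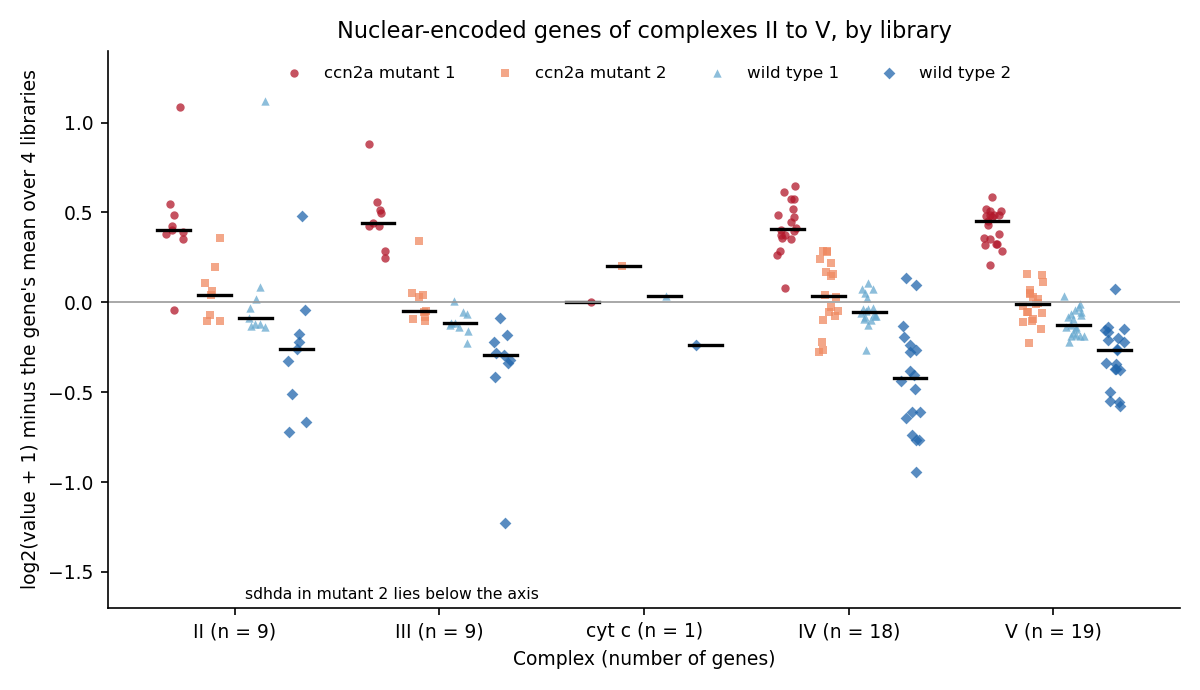
Level of each gene in each library, as log2(value + 1) minus the gene's mean over the 4 libraries, by complex; black bars are medians. Mutant replicate 1 sits highest in complexes II, III, IV and V, wild-type replicate 2 sits lowest, and mutant replicate 2 and wild-type replicate 1 lie close together between them.

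Complex II was slightly higher in mutant ventricles, apart from one of its duplicated anchor genes. Its median log2 fold change was 0.39, with 8 of 9 genes higher and 7 of 9 above in both mutants. Of the 9 genes 4 are assembly factors, whose median was 0.52. As a share of each library the 9 genes took 0.1216% and 0.1011% in mutant ventricles, against 0.1023% and 0.1015% in wild type. On that measure mutant replicate 2 lay below both wild-type libraries. The flavoprotein gene sdha, whose product oxidises succinate, had 12765 and 8975 normalised counts in mutant ventricles, against 8872 and 8543 in wild type (10870 ± 2680 against 8708 ± 233, mean ± SD, n = 2 each). The iron-sulfur gene sdhb had 4521 and 3199 against 3061 and 2890 in wild type. For both, mutant replicate 1 stood far above the other libraries, and mutant replicate 2 was only just above wild type.

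The membrane anchor of complex II is built from the products of sdhc and of an sdhd gene, of which the table lists a pair. The sdhdb copy had 2319 and 2044 normalised counts in mutant ventricles, against 1891 and 1123 in wild type, a log2 fold change of 0.58 (SE 0.28, limma, adjusted p = 0.404). Its duplicate sdhda was a low-count gene with 81 and 5 in mutant ventricles, against 83 and 53 in wild type. The groups overlapped for sdhda, and its log2 fold change of -1.60 (SE 1.17, adjusted p = 0.517) rested on mutant replicate 2, without which it was 0.28. Among the assembly factors, which fit cofactors and partner proteins to the catalytic subunits, sdhaf2 had 1668 and 1283 against 1122 and 836 in wild type. The factor gene sdhaf1 had 168 and 164 in mutant ventricles against 125 and 77 in wild type, with a log2 fold change of 0.75 (SE 0.33, limma, adjusted p = 0.394). A different member of the group, sdhaf3, was level at 261 and 280 in mutant ventricles, against 272 and 261 in wild type.

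In complex III all 9 genes had a positive log2 fold change (median 0.45), and 8 of 9 were above in both mutants. As a share of each library the 9 genes took 0.3439% and 0.2767% in mutant ventricles, against 0.2772% and 0.2739% in wild type, so that the groups overlapped. The core genes uqcrc1, uqcrc2a and uqcrc2b encode the large matrix-facing subunits. Of these, uqcrc1 had 15147 and 10433 normalised counts in mutant ventricles against 10212 and 9555 in wild type. The first uqcrc2 duplicate, uqcrc2a, had 5476 and 3574 in mutant ventricles against 3180 and 3056 in wild type. In each case mutant replicate 1 stood well apart from the 3 other libraries. The log2 fold change was 0.50 for uqcrc2a and 0.45 for uqcrc2b (SE 0.25 each). The 2 catalytic genes of this set, uqcrfs1 for the Rieske iron-sulfur protein and cyc1 for cytochrome c1, had log2 fold changes of 0.48 and 0.43.

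Among the small subunits, uqcrq had 4703 and 3576 normalised counts in mutant ventricles, against 3242 and 2781 in wild type (adjusted p = 0.405). The largest log2 fold change of all 56 genes, 1.22 (SE 0.51, limma, adjusted p = 0.386), belonged to uqcrb, a gene with few reads here. It had 120 and 82 normalised counts in mutant ventricles, against 65 and 27 in wild type, so the groups did not overlap but wild-type replicate 2 set much of the size. At the other end, uqcr10 had 5236 and 4108 against 4239 and 4142 in wild type, and its groups overlapped.

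Cytochrome c, the carrier between complexes III and IV, was represented by cycsb alone. It had 17296 and 19903 normalised counts in mutant ventricles, against 17679 and 14664 in wild type, a log2 fold change of 0.20 (SE 0.24, limma, adjusted p = 0.678). The groups overlapped, and mutant replicate 2 was the highest library, unlike nearly all other members. Its log2 fold change was 0.070 without wild-type replicate 2 and turned lower, at -0.052, under quantile normalisation.

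Complex IV had the largest median difference of the complexes, at 0.51, with 16 of 18 genes higher in the mutant and 13 of 18 above in both mutants. Without wild-type replicate 2 its median was 0.30 and no longer the largest, below 0.31 for complex II, 0.33 for complex III and 0.32 for complex V. Its summed normalised counts were 153441 and 120300 in mutant ventricles, against 110888 and 81929 in wild type (exact permutation test, two-sided p = 0.333, the smallest possible). As a share of each library this was 0.715% and 0.629% in mutant ventricles, against 0.614% and 0.502% in wild type. The 18 genes were far from uniform, ranging in log2 fold change from -0.19 for cox6a1 to 0.87 for cox7a1.

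The gene with the smallest p in the complex was cox4i2, which encodes the regulatory subunit 4 isoform linked in mammals to lung and low oxygen. It had 644 and 576 normalised counts in mutant ventricles, against 443 and 302 in wild type (610 ± 48.1 against 373 ± 99.7, mean ± SD, n = 2 each), with a log2 fold change of 0.73 (SE 0.26, limma, adjusted p = 0.381). Its widely expressed counterpart cox4i1 had 20972 and 15384 in mutant ventricles, against 14069 and 11368 in wild type, a log2 fold change of 0.51 (SE 0.26). Neither pair of groups overlapped. A further gene of the family, cox4i1l, had 18082 and 16954 in mutant ventricles against 15009 and 8174 in wild type, so that wild-type replicate 2 stood well below the other libraries.

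The complex IV genes outside the gene pairs compared by ratio below also had positive log2 fold changes. The subunit 6C gene cox6c had 8392 and 7650 normalised counts in mutant ventricles, against 5989 and 4127 in wild type, at a log2 fold change of 0.69 (SE 0.25, adjusted p = 0.381). For cox7c the values were 8074 and 6243 against 5939 and 3375 in wild type. The gene cox7a3, which the current names table calls COX7A2L after the mammalian protein that joins complexes III and IV, had 2877 and 2498 in mutant ventricles against 2190 and 1608 in wild type. The duplicates cox5aa and cox5ab were alike in size, with log2 fold changes of 0.30 each (SE 0.23 and 0.24). So were cox6b1 and cox6b2 at 0.33 and 0.32 (SE 0.21 and 0.23). The groups overlapped for cox5ab, which had 5002 and 3531 in mutant ventricles against 3691 and 3151 in wild type.

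The muscle and ubiquitous paralogs of complex IV were not alike. Roles here come from mammals, in which COX6A2, COX7A1 and COX8B are the heart and skeletal muscle isoforms and COX6A1, COX7A2 and COX8A the widely expressed ones. They were assigned by the deposited symbols. The current names table lists the gene named cox6a2 under COX6A1, so its muscle role is less certain. All 3 muscle paralogs were above in both mutants, while 0 of the 3 ubiquitous ones were, against 26.6% of all tested genes and 13 of 18 in complex IV. Their median log2 fold changes were 0.75 for the muscle and -0.01 for the ubiquitous genes. The ubiquitous genes were not uniform, at -0.19 for cox6a1, -0.01 for cox8a and 0.39 for cox7a2a (SE 0.20, 0.24 and 0.30). The value of cox7a2a was near the median of all 56 members, 0.44. Such sizes were not particular to muscle paralogs, since cox6c, cox7c and cox4i1l had 0.69, 0.67 and 0.66 and were above in both mutants. The widely expressed cox4i1, also above in both at 0.51, is not among the 3 ubiquitous genes.

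For subunit 6A, cox6a2 (chromosome 3, 31039923 to 31042102) had 14446 and 10883 normalised counts in mutant ventricles, against 9829 and 5691 in wild type. Its partner cox6a1 (chromosome 8, 39760258 to 39765996) had 1850 and 1460 in mutant ventricles, against 1816 and 1928 in wild type. The log2 fold change of the muscle gene was 0.75 (SE 0.32), and 0.35 without wild-type replicate 2. In that library the muscle gene was at its lowest and the ubiquitous gene at its highest. The log2 ratio of cox6a2 to cox6a1 was 2.96 and 2.90 in mutant ventricles, against 2.44 and 1.56 in wild type. The mutant ratio was higher by 0.93, with groups that did not overlap (exact permutation test, two-sided p = 0.333, the smallest possible).

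Subunit 8 gave a similar picture. The muscle paralog cox8b (chromosome 25, 10499642 to 10503043) had 9943 and 8925 normalised counts in mutant ventricles, against 7394 and 4943 in wild type, a log2 fold change of 0.64 (SE 0.26, limma, adjusted p = 0.386). The ubiquitous cox8a (chromosome 21, 28496194 to 28500704) had 1708 and 1174 in mutant ventricles, against 1346 and 1520 in wild type, with overlapping groups. The log2 ratio of cox8b to cox8a was 2.54 and 2.93 in mutant ventricles, against 2.46 and 1.70 in wild type, a difference of 0.65 with no overlap (exact permutation test, two-sided p = 0.333). Mutant replicate 1 and wild-type replicate 1 were nearly equal in this ratio.

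For subunit 7A the ratio did not separate the genotypes. The muscle paralog cox7a1 (chromosome 15, 20403084 to 20405796) had 7494 and 5573 normalised counts in mutant ventricles, against 5025 and 2489 in wild type, the largest log2 fold change in complex IV at 0.87 (SE 0.37, limma, adjusted p = 0.386). The ubiquitous cox7a2a (chromosome 17, 49983157 to 49995366) had 1956 and 1096 in mutant ventricles, against 1064 and 1166 in wild type. Only mutant replicate 1 stood above the others for cox7a2a. The log2 ratio of cox7a1 to cox7a2a was 1.94 and 2.35 in mutant ventricles, against 2.24 and 1.09 in wild type, and the groups overlapped (exact permutation test, two-sided p = 0.667).

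Wild-type replicate 2 carried much of the paralog contrast. Without it the difference in log2 ratio was 0.50 for subunit 6A, 0.28 for subunit 8 and -0.10 for subunit 7A. Without wild-type replicate 1 these differences were 1.37, 1.03 and 1.05. With all 4 libraries the subunit 4 ratio, cox4i2 to cox4i1, was -5.02 and -4.74 in mutant ventricles against -4.99 and -5.23 in wild type, with overlapping groups. The deposited table gives no transcript lengths, so each ratio is compared between libraries and says nothing of which paralog is the more abundant. Coordinates are printed as in the table, whose genome build is unsettled.

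**Figure D3:**
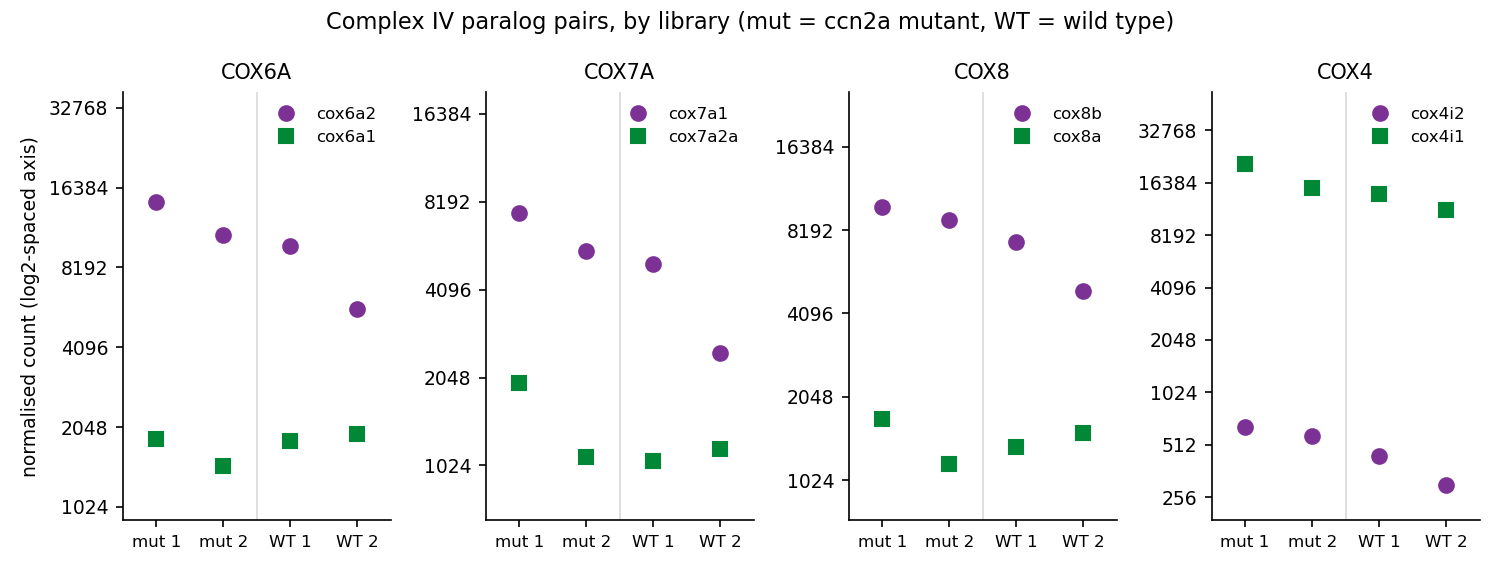
Normalised counts (log axis) of 4 complex IV paralog pairs in each library, with circles for the muscle or other tissue isoform and squares for the ubiquitous one. The circles of cox6a2, cox7a1 and cox8b are lowest in wild-type replicate 2, while the squares of cox6a1, cox7a2a and cox8a do not order the genotypes.

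Complex V was higher in the mutant at 18 of 19 genes, with a median log2 fold change of 0.40, and 16 of 19 were above in both mutants. Summed normalised counts were 325536 and 230719 in mutant ventricles, against 217773 and 202995 in wild type. As a share of each library this was 1.516% and 1.2056% in mutant ventricles, against 1.2059% and 1.245% in wild type. On that measure mutant replicate 2 lay below both wild-type libraries. The catalytic head and central stalk of complex V are encoded by atp5fa1, atp5f1b, atp5f1c, atp5f1d and atp5f1e. The alpha subunit gene atp5fa1 had 62527 and 40611 in mutant ventricles, against 39523 and 40610 in wild type. The beta subunit gene atp5f1b had 80272 and 55245 in mutant ventricles, against 52694 and 54216 in wild type. In both, mutant replicate 1 was far above the other libraries, and those 3 lay within a narrow band. Their log2 fold changes were 0.33 and 0.32 (SE 0.32 each, limma, adjusted p = 0.615 and 0.632). Over the 5 genes of the head and stalk the median log2 ratio of mutant replicate 1 to replicate 2 was 0.54, while that of wild-type replicate 1 to replicate 2 was -0.02.

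The other structural parts of the ATP synthase followed with small differences. The 3 c-ring genes, whose products turn in the membrane as protons pass, had log2 fold changes between 0.28 and 0.46. The 4 genes of the peripheral stalk lay between 0.27 and 0.52, with atp5po, which encodes the oligomycin sensitivity protein, at 24095 and 17152 normalised counts in mutant ventricles against 15326 and 13052 in wild type. Of the 4 further membrane subunits, all were above in both mutants. The subunit g gene atp5l had 10109 and 7703 in mutant ventricles, against 6765 and 4871 in wild type, and the subunit e gene atp5mea had 3272 and 2927 against 2250 and 2193. For atp5mea the replicates of each genotype were close to each other, and the log2 fold change was 0.48 (SE 0.18, limma, adjusted p = 0.381).

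The inhibitor factor genes of complex V were not alike. IF1 proteins block ATP hydrolysis by the synthase when the gradient collapses, and zebrafish has a pair of genes for them. Of all members, atp5if1b had the smallest p, with 6874 and 5104 normalised counts in mutant ventricles, against 4033 and 3125 in wild type (5989 ± 1252 against 3579 ± 642, mean ± SD, n = 2 each). Its log2 fold change was 0.74 (SE 0.24, limma, unadjusted p = 0.0235, adjusted p = 0.381). The duplicate atp5if1a had 1588 and 1176 in mutant ventricles, against 1327 and 1451 in wild type, with overlapping groups and a log2 fold change of -0.02 (SE 0.22). Whether the duplicates differ in their response was not tested.

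Within each genotype the genes spread in different ways. The median log2 ratio of mutant replicate 1 to mutant replicate 2 was 0.38, 0.54, 0.40 and 0.43 for complexes II, III, IV and V. The corresponding ratio between wild-type replicates 1 and 2 was 0.21, 0.13, 0.34 and 0.15. Mutant replicates thus stood apart in all of these complexes, and wild-type replicates most in complex IV. There the muscle paralogs had a median of 0.79 between the wild types and the ubiquitous ones -0.13, while between the mutants the medians were 0.41 and 0.54. The members that were higher in wild-type replicate 2 than in replicate 1 numbered 7 of 56, namely cox6a1, cox7a2a, cox8a, atp5fa1, atp5f1b, atp5f1e and atp5if1a.

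**Figure D4:**
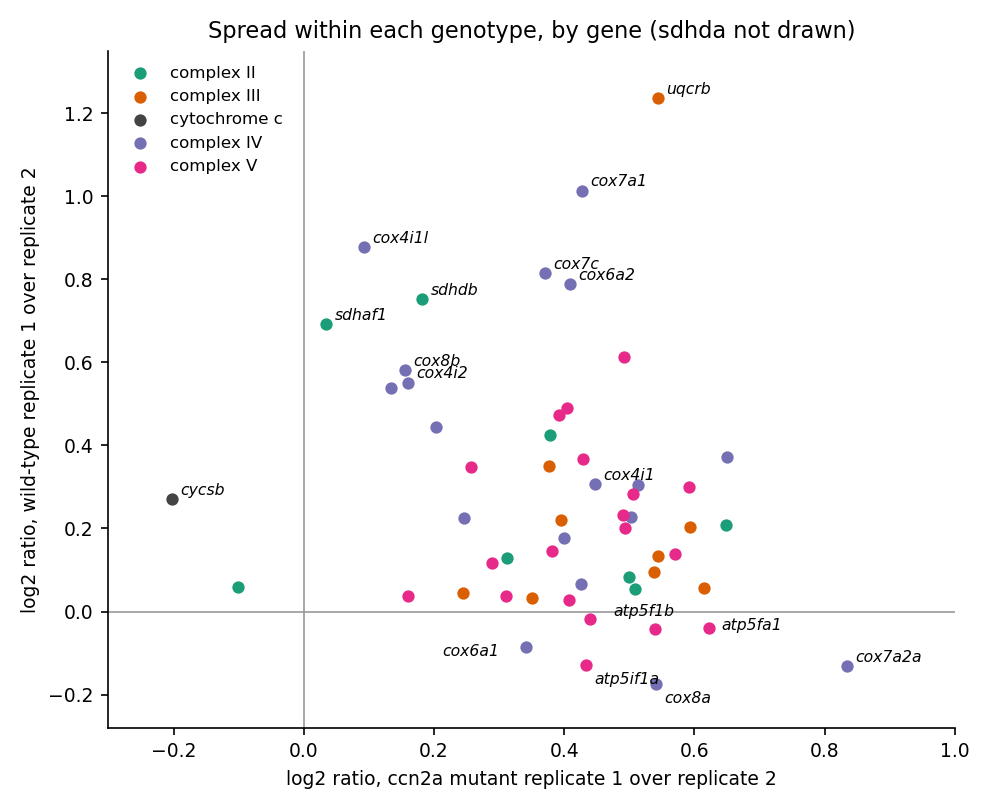
For each gene, the log2 ratio of mutant replicate 1 over 2 (horizontal) against that of wild-type replicate 1 over 2 (vertical), by complex; sdhda is not drawn. Nearly all genes lie right of 0, except sdhaf3 and cycsb, and uqcrb, cox7a1, cox4i1l, cox7c and cox6a2 reach highest on the vertical axis.

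Other subunits of the respiratory complexes put the libraries in the same order of medians as the 56 genes. The 6 subunits of complexes III to V made by the mitochondrial genome were all above in both mutants, with a median log2 fold change of 0.79 and 0 calls (smallest adjusted p = 0.415). Among them mt-co1, the catalytic core of complex IV, had 1092527 and 894682 normalised counts in mutant ventricles, against 847998 and 481839 in wild type. As for the muscle paralogs, wild-type replicate 2 was the low library, and the median distance from a gene's mean was 0.52 and 0.25 in mutant ventricles against 0.08 and -0.84 in wild type. Complex I subunit genes of the nucleus were higher at 33 of 34, with a median of 0.34, and 20 of 34 were above in both mutants. Their median distance from a gene's mean was 0.42 and -0.06 in mutant ventricles against -0.10 and -0.25 in wild type, much as for the 56 genes.

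Assembly factor genes differed by complex. Of 22 listed for complex IV in the table, 14 were higher in the mutant and 8 lower, and the median log2 fold change was 0.14. That list was broad, and also held hccsa.1, hccsb, lrpprc and taco1, which are not its assembly factors in the strict sense. The assembly factor gene cox10, whose product makes haem for complex IV, had 1167 and 941 normalised counts in mutant ventricles against 870 and 702 in wild type. The copper chaperone gene cox17 was at 1667 and 1290 in mutant ventricles, against 1567 and 1474 in wild type. For complex III, 4 of 6 assembly factors were higher (median 0.29), and for complex V 4 of 4 (median 0.21). The 4 of complex II, which are members described above, were all higher (median 0.52). None of these genes passed (smallest adjusted p = 0.386).

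Known regulators of the nuclear respiratory genes were not higher as a group. Of 15 in the table, 7 were higher in the mutant and 8 lower. The median was -0.02, with 0 calls. The coactivator gene pprc1 had 148 and 207 normalised counts in mutant ventricles, against 476 and 504 in wild type, a log2 fold change of -1.48 (SE 0.26, limma, unadjusted p = 0.0012, adjusted p = 0.381). Its relative ppargc1a, which drives mitochondrial biogenesis in mammals, had 77 and 217 in mutant ventricles against 361 and 134 in wild type, with overlapping groups. A further relative, ppargc1b, ran the other way, with 1202 and 1651 in mutant ventricles against 1057 and 1157 in wild type. Its log2 fold change was 0.35 (SE 0.23, limma, adjusted p = 0.475). The nuclear receptor gene esrra had 332 and 542 against 743 and 593 in wild type. For nrf1 the values were 500 and 369 against 357 and 387, and for the mitochondrial transcription factor gene tfam 629 and 542 against 632 and 645.

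Markers of several cell types also differed between the libraries, not all in the order seen for the respiratory genes. Cardiomyocyte genes were higher at 11 of 12 (median log2 fold change 0.42), and their median distance from a gene's mean was 0.28 and 0.15 in mutant ventricles against -0.13 and -0.35 in wild type. This list puts the libraries in the same order as the 56 genes, but with mutant replicate 2 nearer to mutant replicate 1. The exception was a gene named actc1a with 151 and 101 normalised counts in mutant ventricles, against 5136 and 159 in wild type, 1 of 2 genes of that symbol. Erythrocyte genes were higher at 9 of 9 (median 0.83), summing to 262134 and 230985 in mutant ventricles against 160545 and 124158 in wild type. Endothelial genes were higher at 8 of 8 (median 0.47), and summed to 25109 and 24983 against 19061 and 16949 in wild type. Both of these lists also put the libraries in the same order of medians as the 56 genes. The median log2 difference of mutant replicate 2 to wild-type replicate 1 was 0.45 for erythrocyte, 0.39 for endothelial and 0.26 for cardiomyocyte genes. For the 56 respiratory genes it was 0.09. Macrophage genes were lower at 5 of 7 (median -0.30). Their sums were 29660 and 21756 in mutant ventricles, and 24293 and 18988 in wild type. The largest single part in each library was cd74a, an antigen presentation gene that was higher in the mutant. It had 19483 and 10582 in mutant ventricles, against 10353 and 4794 in wild type.

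Fast skeletal muscle was hardly present, since the defining genes mylpfa, myhz1.1 and myhz1.2 lay between 1 and 26 normalised counts in every library. The other listed skeletal genes ckma and mb are shared with heart muscle, and the 6 listed genes in the table summed to 372924 and 326170 in mutant ventricles against 300023 and 230987 in wild type. Fibroblast and epicardial genes ran both ways (3 of 7 higher, sums 147732 and 77355 against 92219 and 109079 in wild type). Neutrophil genes were lower at 4 of 6, with sums of 2206 and 2171 against 2303 and 2589 in wild type. Exocrine pancreas genes can mark tissue carried along in dissection, which was not tested here. They summed to 301 and 240 in mutant ventricles against 814 and 1252 in wild type, where ctrb1 alone gave 704 and 1179. The tally ran the other way, with 2 of 3 tested genes higher in the mutant: cpa5 had 145 and 123 in mutant ventricles against 90 and 44 in wild type, and ela2 had 50 and 29 against 16 and 20. None of the listed marker genes in the table was at 0 in any library. The part of cell composition and of library depth in the respiratory difference was not tested.

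**Figure D5:**
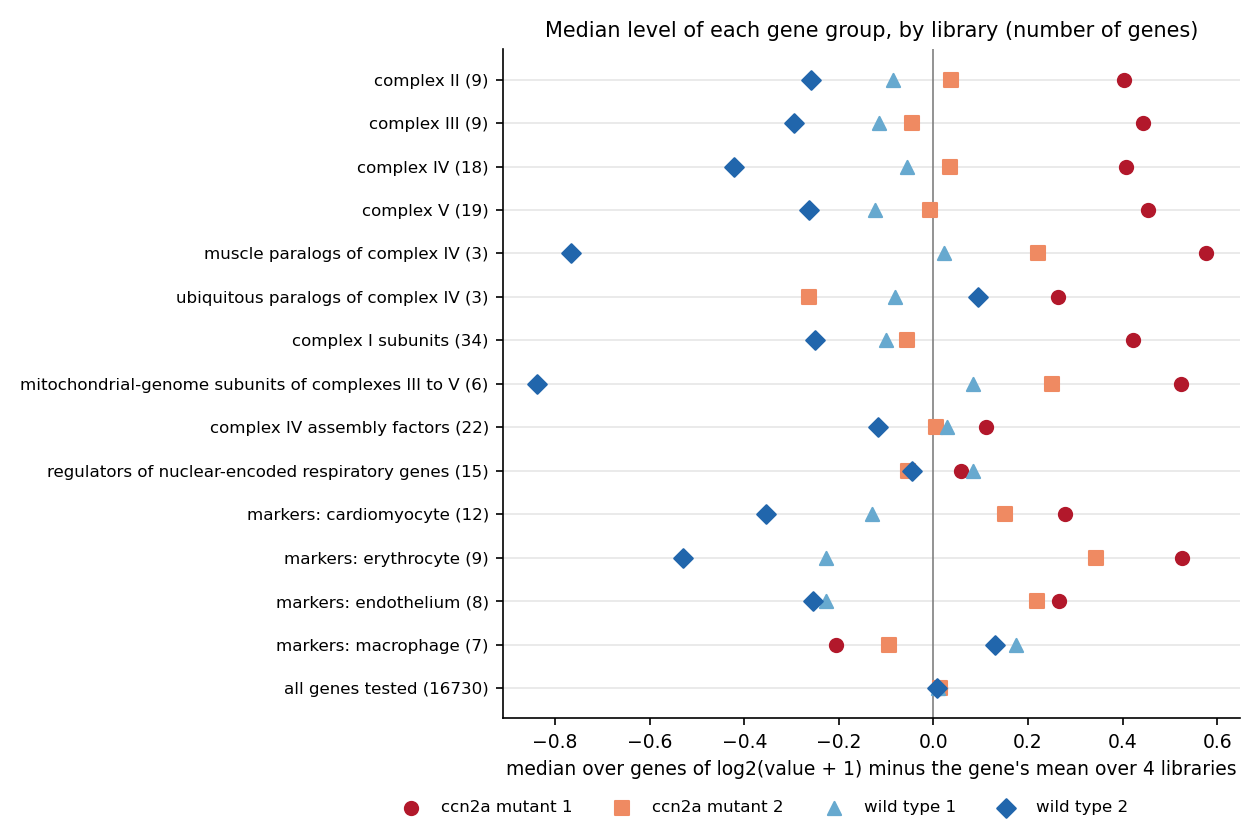
Median over the genes of each group of log2(value + 1) minus the gene's mean over the 4 libraries, 1 marker per library, with the number of genes in brackets. Muscle paralogs and mitochondrial-genome subunits put wild-type replicate 2 far left of the rest, ubiquitous paralogs do not, and complexes II to V put mutant replicate 1 far right.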

How the data were processed

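Polyadenylated RNA of 4 ventricle libraries was sequenced with a stranded kit, per the labels' protocols. The submitters' processing notes name STAR 2.4.0a, featureCounts 1.4.5-p1 (Subread), DESeq2 1.6.2 and the build GRCz10 (danRer10), without settings or the strand setting of counting. Table coordinates reach 78048911 on chromosome 4, so the build is treated as unsettled. The deposited values are whole-number scores, taken as read counts that the authors divided by a size factor and rounded. Regular gaps in the low values show this for the libraries with a factor below 1. The spacing gave factors of 0.874 and 0.946 for the mutants and 0.952 and 1.32 for wild type. At 1.32 rounding leaves no gaps, so that factor and the depth of wild-type replicate 2 are less certain. At a factor above 1 whole reads cannot be recovered, so no count model was used.

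The comparison of genotypes used limma 3.58.1 with a mean-variance trend and no block, in R 4.3.3, on log2(value + 1), over the 16730 genes with a mean of 10 or more, two-sided, with Benjamini-Hochberg adjustment over all of them and a threshold of 0.05. Fold changes on this scale understate those of low genes. The fit was checked on simulated counts that were independent between genes, with fold changes larger than those of nearly all members. That check does not bear on shifts shared by many genes of a library. Single values per library were compared by exact permutation in scipy 1.17.1. Files were read with data.table (version 1.17.8) and pandas 2.3.3, and figures drawn with matplotlib 3.10.9.

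The members and lists were chosen with earlier results of these data known. Members named with values are the paralog pairs, the 3 with the smallest p and the 1 with the highest mean in each complex, those lower in the mutant, cytochrome c, and the 5 highest and 5 lowest log2 fold changes. Others named beside them were picked by role or, as for uqcr10, cox7c and cox4i1l, by their values. Promoter and protein sequences were not analysed here. No per-sample column was left unused (0).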

Additional observations from a re-analysis of the deposited data

How the results depend on the processing

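No gene passed the threshold under any alternative tried, which were a pseudocount of 10, no filter, quantile normalisation, equal nuclear totals, a replicate block and leaving out each library. The smallest adjusted p among all genes lay between 0.159 and 0.868 over these. The labels do not pair the replicate numbers, and deviations of same-numbered libraries were not correlated (r = 0.0041 across 16730 genes, which are not independent). Among the 56 members r was 0.050, but a correlation leaves out a shift that all of them share. Replicate 1 was the higher among them in both genotypes, by median log2 ratios of 0.42 in the mutants and 0.22 in wild type. With the replicate block 0 genes passed, and the members at an unadjusted p under 0.05 numbered 13 in place of 6. Among all 16730 tested genes the number at that level rose by a smaller proportion, from 2145 to 2655. In the block fit the members' share was thus above that of all tested genes, unlike in the fit without a block. Members higher in the mutant numbered between 50 and 54 over all alternatives.

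Leaving out 1 library at a time gave ranges of 0.21 to 0.67 for the members' median log2 fold change, 0.12 to 0.60 for complex II, 0.20 to 0.67 for complex III, 0.24 to 0.72 for complex IV, 0.21 to 0.64 for complex V and 0.07 to 0.34 for cytochrome c. The difference in log2 paralog ratio ranged from 0.50 to 1.37 for subunit 6A, from 0.28 to 1.03 for subunit 8, from -0.10 to 1.05 for subunit 7A and from 0.08 to 0.37 for subunit 4. Such fits leave 1 library in a genotype, so counts of small p-values are not compared between them. By quantile normalisation cytochrome c (cycsb) turned to -0.052, the log2 difference in the members' summed level was 0.17 against 0.41, and the subunit 4 ratio difference was 0.45 against 0.23. By equal nuclear totals cytochrome c was 0.024. In that fit 1 of 56 members was at an unadjusted p under 0.05, and 2388 of all 16730 tested genes were.

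Directions that turned belonged to genes near 0 or with 1 stray library. By equal totals sdhaf3 was at -0.16. Over the fits that left out 1 library, sdhaf3 ranged from -0.030 to 0.071, cox7a2a from -0.023 to 0.81, sdhda from -3.49 to 0.28, cox8a from -0.28 to 0.26 and atp5if1a from -0.24 to 0.19. Without mutant replicate 1 cox7a2a and uqcr10 (-0.029) turned lower, and uqcr10 was also lower by equal totals (-0.034). Without mutant replicate 2 sdhda, cox8a and atp5if1a turned higher and sdhaf3 lower, and all but sdhda did so when wild-type replicate 2 was left out. The cause of these shifts was not tested. With 2 libraries per genotype the number of libraries limits the precision.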

Other observations

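Subunit genes that the naming rule does not reach were read after the other values had been seen. The gene ndufa4, whose product is now counted as a complex IV subunit in mammals, had 23774 and 18222 normalised counts in mutant ventricles, against 17275 and 15629 in wild type, and its relative ndufa4l had 20365 and 15936 against 14376 and 7574 in wild type. The gene listed as ATP5MD had 5822 and 4516 in mutant ventricles, against 4125 and 2914 in wild type. The genes listed as COX5B and COX7A2 overlapped or ran the other way. COX5B had 4969 and 3137 in mutant ventricles against 3703 and 3952 in wild type, and COX7A2 had 291 and 314 in mutant ventricles against 366 and 347 in wild type. None of these 5 passed (limma, smallest adjusted p = 0.394).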
